A study of Mus musculus with 6 samples.

Results

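Plasma cells carrying a majority of immunoglobulin RNA were selected from 6 single-cell RNA libraries of sorted mouse spleen cells. A barcode was retained with at least 500 detected genes and under 10% of its unique molecular identifiers (UMIs, which count RNA molecules) from mitochondrial genes. A retained barcode was taken as a plasma cell when at least 50% of its UMIs came from immunoglobulin heavy, kappa or lambda genes or *Jchain*, and it held at least 2 UMIs of *Xbp1*. This left 1672 cells of 21568 retained barcodes. Because the selection read immunoglobulin and *Xbp1* UMIs, those values are given as descriptions and were not tested. All 6 libraries came from mice carrying Cγ1-Cre, a recombinase in the *Ighg1* locus that acts in activated B cells. The first 3 libraries were controls with both *Smc3* alleles (Smc3 wt/wt), and the other 3 carried 1 *Smc3* allele from which this Cre removes exon 4 (Smc3 wt/-). Cells were taken 8 days after immunization with sheep red blood cells, and all libraries are labelled germinal center (GC) B cells. How many mice entered each library is not given in the labels, so p-values measure the spread between libraries.

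Plasma cells are the antibody-secreting end stage of the B lineage. The factors IRF4 and BLIMP-1 (*Prdm1*) switch off the B cell program, and XBP1 enlarges the endoplasmic reticulum (ER), where antibody chains are inserted, glycosylated, folded and checked. Their short-lived dividing precursors, the plasmablasts, leave the B cell follicles and GCs, and mature cells settle in bone marrow, spleen or mucosa. IgA, joined into dimers by the J chain, is the main antibody of mucosal surfaces.

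The cells were spread very unevenly. The 3 control libraries held 13, 18 and 21 plasma cells, and those of Smc3 wt/- held 10, 1591 and 19. Library values are given in this order, replicates 1 to 3 of each genotype, throughout. Smc3 wt/- library 2 thus contributed 95.2% of all members. Plasma cells were 43.2% of its retained barcodes (exact 95% interval 41.6 to 44.9, counting error only), against 0.347% to 1.27% in the other 5 libraries. Mean shares were 0.698% ± 0.502 (SD, n = 3) for Smc3 wt/wt and 14.7% ± 24.7 (SD, n = 3) for Smc3 wt/-, a difference of 13.99 percentage points that lay within the spread between libraries (two-sided exact permutation test, p = 0.8; the smallest possible is 0.1). Without Smc3 wt/- library 2 the difference was -0.295 percentage points (exact permutation p = 0.7). The genotypes were therefore not compared gene by gene, and the cells are described by library.

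Smc3 wt/- library 2 also stood apart in cells other than plasma cells. Whether it was sorted with the same gate as the others is not given in the sources used here, so a difference in sorting and its plasma cell share cannot be told apart. Monocyte, macrophage or neutrophil marker genes gave at least 10 UMIs in 287 of its barcodes, 7.80% of those retained, against 0.0626% to 0.490% in the other libraries. Its T cells, which do not make antibody, carried a median of 1.30% immunoglobulin UMIs and 9 UMIs of *Igha*, while the medians in the other libraries were at most 0.165%. These levels lie far under the 50% used for selection. Its other B cells also differed in make-up. *Hmgb2*, a chromatin protein of dividing cells, stood at 1165 CPM there (CPM, the UMIs of a gene per 1000000 non-immunoglobulin UMIs of the group) and at 3096 to 3266 CPM in the B cells of the other libraries. Comparisons were made within libraries and repeated without this one. Total UMIs per library ran from 5223325 to 35354257. Between 4 and 43 barcodes were shared by any pair of libraries, and no barcode was a plasma cell in more than 1 library. Of 721 barcodes with the highest Scrublet doublet scores, 54 were plasma cells, all in Smc3 wt/- library 2.

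**Figure D1:**
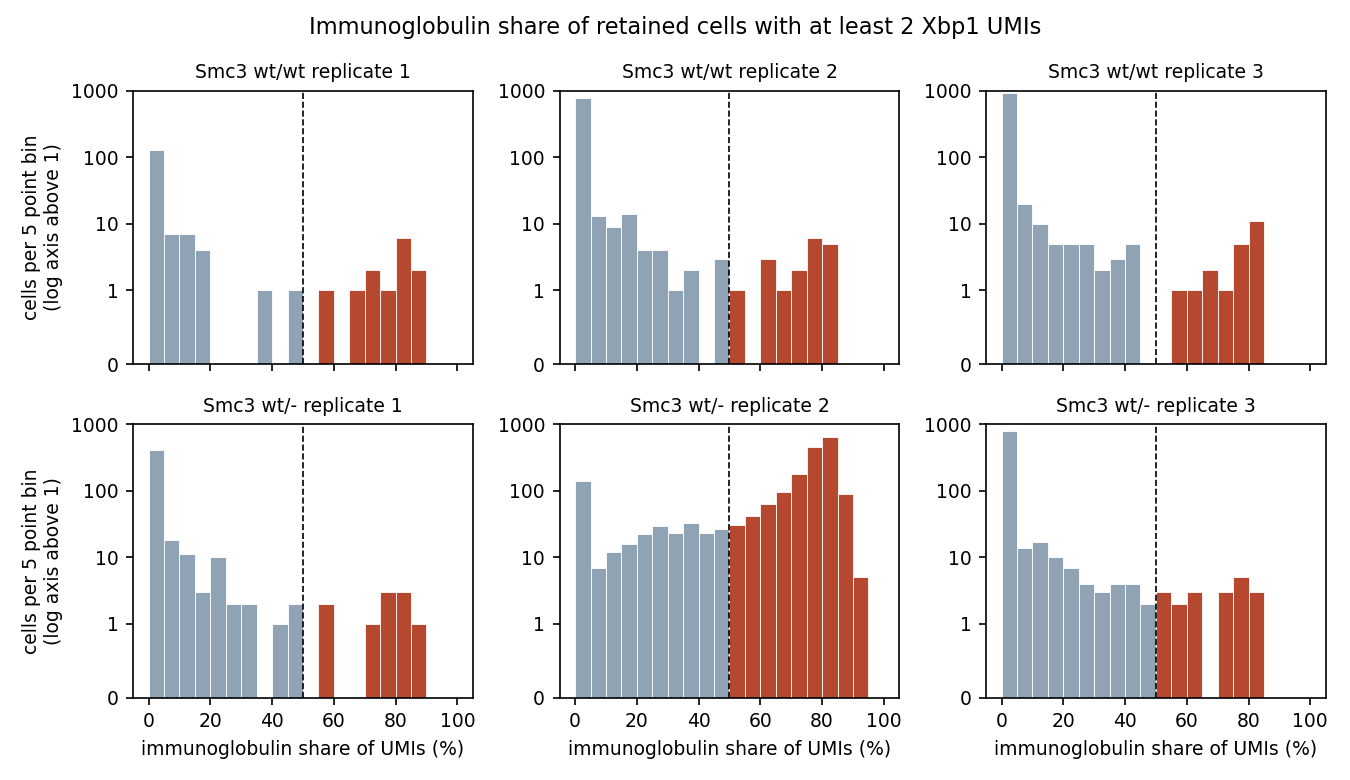
Distribution of the immunoglobulin share of UMIs over retained barcodes with at least 2 *Xbp1* UMIs, by library, in percent on the horizontal axis, with the selection threshold of 50% marked. Most selected barcodes lie well above the threshold, and Smc3 wt/- library 2 holds 1591 of the 1672 selected cells.

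The selected cells lay mostly far from the thresholds. The immunoglobulin share had a median of 81.4%, 76.9% and 80.1% in the control libraries and 79.6%, 79.6% and 72.3% in the Smc3 wt/- libraries, and its maximum was 93.0%. Over all libraries 81 cells lay between 50% and 60%, 169 between 60% and 70%, 655 between 70% and 80%, and 767 at 80% or more. Just outside the threshold, 35 cells had 45% to 50%, and just inside, 34 had 50% to 55%. *Xbp1* excluded 21 barcodes past 50% immunoglobulin, 6 with no UMI and 15 with 1. The median was 11 to 27 *Xbp1* UMIs per cell, with 18 cells at the minimum of 2 and 31 at 3.

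Levels are given for 4 of the markers named for these cells, since *Xbp1* and *Igha* had entered the selection. The cells were chosen with earlier results of these data known, so these levels describe them and cannot check the label. *Ssr4*, a subunit of the complex that accompanies translocation into the ER, measured 5029, 4244 and 3882 CPM (Smc3 wt/wt) and 3588, 4870.3 and 4499 CPM (Smc3 wt/-), against 93.9 to 220.3 CPM in the other B cells (*Cd79a* detected, under 10% immunoglobulin UMIs, *Xbp1* under 2 UMIs). *Txndc5*, an ER disulphide isomerase, measured 3570.1, 2493 and 3999 CPM (Smc3 wt/wt) and 1868, 3820.5 and 3738 CPM (Smc3 wt/-), against 103 to 150.5 CPM. The groups did not overlap for either gene, which held for 1854 of all 8861 genes tested against other B cells. *Edem2*, a mannosidase that marks misfolded glycoproteins for removal, measured 1881, 1588 and 1677 CPM (Smc3 wt/wt) and 1622, 2038 and 1332 CPM (Smc3 wt/-), against 30.1 to 48.8 CPM in other B cells. *Prg2* (chr2:84980461-84983632, plus strand, GRCm38), which encodes the major basic protein of eosinophil granules, measured 883, 742 and 317 CPM (Smc3 wt/wt) and 197, 2735 and 208 CPM (Smc3 wt/-), against 0.511 to 9.81 CPM. *Prg2* was thus far higher in Smc3 wt/- library 2 than in the rest, yet plasma cells exceeded the other B cells in all 6 libraries. The value of the other B cells was also highest there, at 9.81 CPM. All 4 were detected in the plasma cells of every library.

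Markers of most other cell types were scarce in the plasma cells, but hemoglobin genes were not in Smc3 wt/- library 2. The 6 T cell genes summed to 0 to 98.3 CPM per library, and the 6 monocyte or macrophage genes to 0 to 130 CPM. The 8 neutrophil lineage genes were at 0 in 5 libraries and at 349 CPM in Smc3 wt/- library 2, where 120 plasma cells held at least 3 such UMIs. The eosinophil and basophil list summed to 9.1 CPM in Smc3 wt/- library 2 and to 0 elsewhere, and its defining genes *Epx* and *Mcpt8* had no UMI in any plasma cell, although *Prg2* was abundant. The 6 B cell precursor genes were at 0 throughout. Hemoglobin genes summed to 38.4, 386 and 211 CPM (Smc3 wt/wt) and to 0, 2224 and 104 CPM (Smc3 wt/-). At least 3 hemoglobin UMIs were found in 849 of the 1591 plasma cells of Smc3 wt/- library 2 and in 4 of the others. Single cells of that library reached 2557 UMIs of *Hbb-bs* and 1705 of *Hba-a1*. In the comparison with other B cells described below, 3 of the 4 hemoglobin genes were lower in plasma cells (median log2 difference -1.27). The call of *Hba-a1* was lost without Smc3 wt/- library 2 (-1.07). The part of hemoglobin UMIs in the results was not tested.

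Nearly all the plasma cells expressed IgA. An isotype was assigned when 1 constant gene held at least 80% of a cell's heavy chain constant UMIs and these numbered at least 10. *Igha* (chr12:113254830-113260236, minus strand, GRCm38), the alpha constant gene, was assigned to 13 of 13, 14 of 18 and 20 of 21 plasma cells of Smc3 wt/wt and to 9 of 10, 1522 of 1591 and 17 of 19 of Smc3 wt/-. In all, 1595 of 1672 cells (95.4%) were IgA, 27 IgM, 24 IgG2b, 5 IgG1, 5 IgG2c, 3 IgG3, and 13 were unassigned. A median of 99.86% of a cell's heavy constant UMIs came from the leading gene, so isotypes were rarely mixed. *Igkc*, the kappa constant gene, made up 61.0% of all immunoglobulin UMIs, *Igha* 21.0% and *Jchain* 12.7%. Lambda chains led in 66 cells (3.95%) and 4 were mixed.

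IgA was much rarer in the other antibody-rich cells of most libraries. The first comparison group, called intermediate here, held at least 2 *Xbp1* UMIs, 10% to under 50% immunoglobulin and under 2 UMIs of the division genes *Mki67* and *Top2a* together (171 cells). The second, cycling plasmablasts, differed only in holding at least 2 such UMIs (181 cells). *Igha* was assigned to 0%, 8.33% and 23.1% of intermediate cells of Smc3 wt/wt and to 16.7%, 81.7% and 17.6% of those of Smc3 wt/-. In cycling plasmablasts the shares were 0%, 12.0% and 4.55%, and 4%, 78.5% and 5.88%. The plasma cells were at 100%, 77.8% and 95.2%, and at 90%, 95.7% and 89.5%. The plasma cell share was higher in every library, by 60.2 percentage points on average over the 5 libraries with at least 5 intermediate cells and by 73.9 points over 6 libraries against cycling plasmablasts, and by 71.7 and 85.2 points without Smc3 wt/- library 2. These values carry no test, since the isotype was examined after values were seen. In Smc3 wt/- library 2 both comparison groups were mostly IgA as well, with a median of 434 *Igha* UMIs per cell in each, against the 9 found in its T cells.

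**Figure D2:**
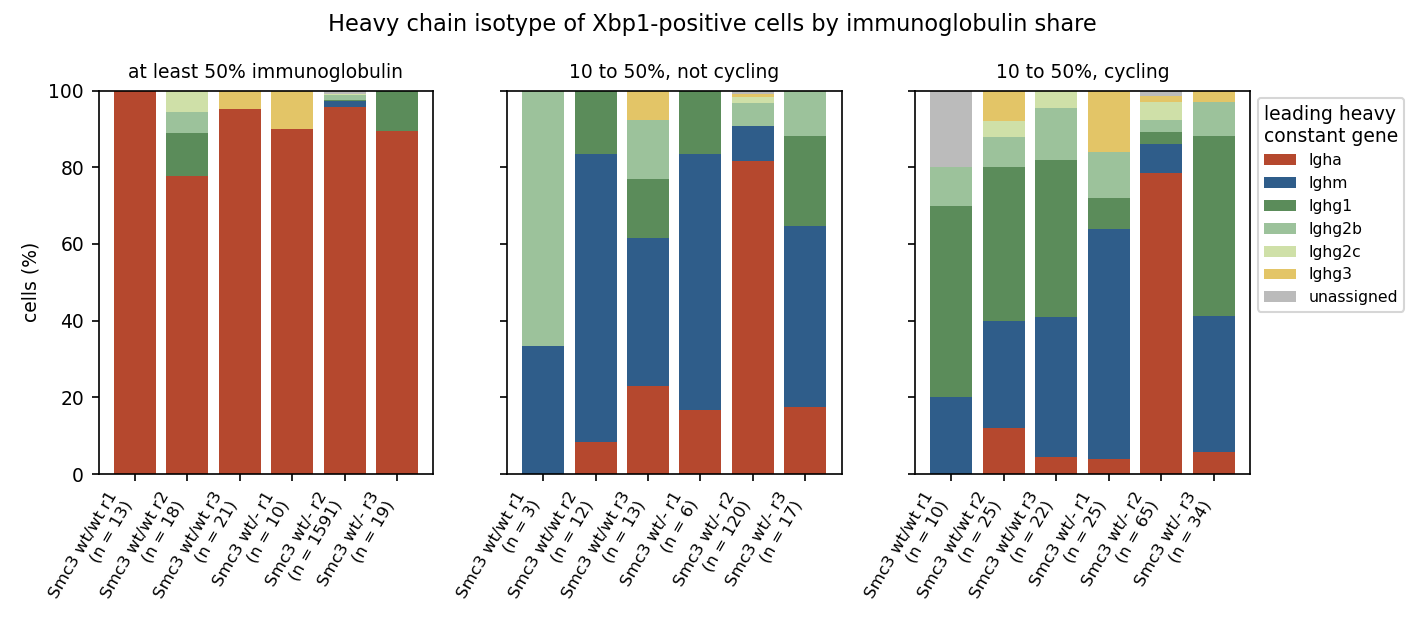
Share of cells (percent, vertical axis) assigned to each heavy chain isotype in plasma cells, intermediate cells and cycling plasmablasts of each library. *Igha* takes 77.8% to 100% of plasma cells in every library, and takes most of the other 2 groups in Smc3 wt/- library 2 only.

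The rest of the transcriptome was compared with that of the other B cells in the same library. UMIs outside the immunoglobulin genes were summed per library and group, and log2 differences (plasma cells minus the comparison group) were fitted with the edgeR quasi-likelihood test with library as a block. They are given with their standard errors. Because groups were cut on immunoglobulin and *Xbp1*, genes that accompany these in a cell were bound to differ, and the adjusted p measures only whether a difference recurred over libraries. Of 8861 genes tested, 3828 differed at an adjusted p under 0.05 (43.2%), of which 1130 were higher (12.8% of those tested) and 2698 lower (30.4%). Library values of plasma cells and other B cells did not overlap for 1854 of the 8861, against which any lack of overlap is read. The median over all genes was -0.45. The counts of gene lists should be read against these shares, and a gene entered only with enough counts. For 62 of the genes tested against other B cells only the plasma cells reached them in all 6 libraries, and all 62 were higher. Of list genes these were 8 regulators, 2 of ER folding and 1 each of the stress responses and migration. In the other direction, 5880 genes reached them in all 6 libraries of other B cells but not in those of plasma cells, and 1922 of the 2698 lower genes were among these. Genes that entered through 1 group alone are given as descriptions with no p, and a list's count and median support nothing so far as they rest on them.

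**Figure D3:**
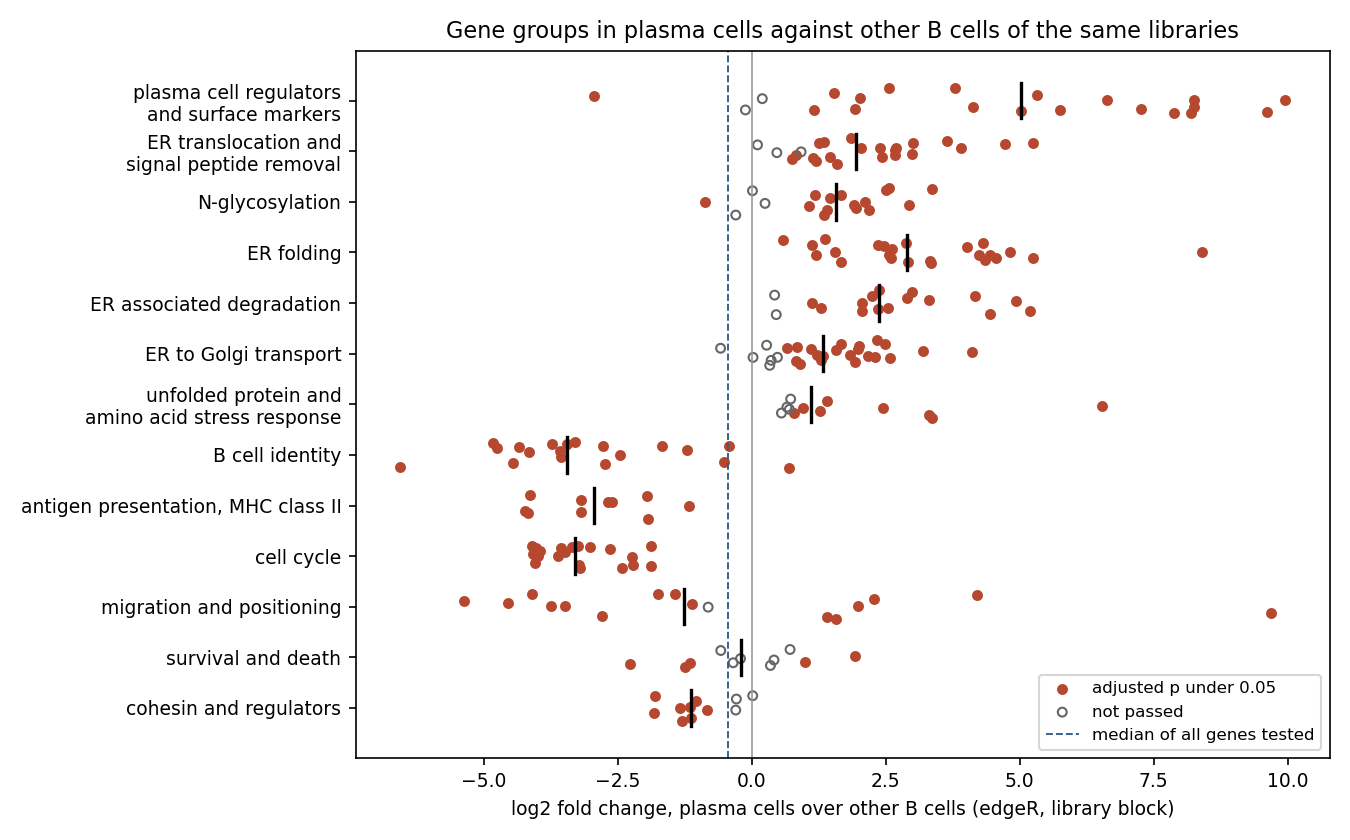
Log2 difference between plasma cells and other B cells for each tested gene of each list (points; horizontal axis, log2 scale), with the list medians and the median of all genes, -0.45. The ER lists and plasma cell regulators lie to the right of it, and B cell identity, MHC class II and cell cycle genes to the left.

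Plasma cell regulators and surface genes were mostly higher, in 18 of 21 tested, with 1 lower, 2 not past the threshold and a median of 5.03, but 8 of the 18 had entered through the plasma cells alone. *Sdc1*, which encodes CD138, the proteoglycan used to identify plasma cells, measured 998, 430.3 and 492.6 CPM (Smc3 wt/wt) and 1720.2, 487 and 554 CPM (Smc3 wt/-), against 0.262 to 1.68 CPM in other B cells (log2 difference 9.61 ± 0.33, a gene that entered through the plasma cells). *Tnfrsf17*, the survival receptor BCMA, measured 998, 742 and 1009 CPM (Smc3 wt/wt) and 295, 770.0 and 796 CPM (Smc3 wt/-), against 0.131 to 7.01 CPM (9.96 ± 0.41). Both were higher in every library without overlap, although the value of *Tnfrsf17* in Smc3 wt/- library 1 rested on 6 UMIs. *Irf4*, the factor that commits cells to the lineage, differed by 4.13 ± 0.36 (edgeR adjusted p = 4.75e-17), and *Cd28*, a co-stimulatory receptor of long-lived plasma cells, by 7.88 ± 0.36. *Prg2* differed by 8.25 ± 0.30. *Tnfrsf17*, *Cd28* and *Prg2* had entered in the same way as *Sdc1*. *Prdm1* had 534 UMIs in all plasma cells and stood at 0 to 192 CPM, and was not tested against B cells, where it reached at most 1.68 CPM. *Slpi*, a secreted protease inhibitor, differed by 5.03 ± 0.20. The lower gene was *Cd38*, an ectoenzyme of resting B cells and, in humans, of plasma cells (-2.95 ± 0.50, entered through the other B cells alone), at 0 to 49.1 CPM in plasma cells and 29.3 to 178 CPM in other B cells. This call was lost without Smc3 wt/- library 2 (-0.82), whose B cells had the highest level.

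Most genes of the secretory route were higher at each of its steps. In ER translocation and signal peptide removal, 21 of 24 were higher and none lower, with a median of 1.95. Of these *Ssr4* differed by 4.73 ± 0.17, *Sec11c*, a signal peptidase subunit, by 3.91 ± 0.17, *Tram2*, a translocation channel partner, by 5.25 ± 0.28 and *Spcs1*, another signal peptidase subunit, by 3.02 ± 0.18. In N-glycosylation, the transfer of sugar trees onto nascent chains, 14 of 18 were higher and 1 lower, with a median of 1.56. *Krtcap2* (2.94), *Ddost* (2.56), *Rpn1* (2.51) and *Rpn2* (2.19), all subunits of the oligosaccharyltransferase, led it. The lower member was *Stt3b*, the catalytic subunit of the form of this enzyme that works mostly after translation, at 0 to 197 CPM in plasma cells and 122 to 158 CPM in B cells (-0.88 ± 0.30, entered through the other B cells alone). The call was lost without Smc3 wt/- library 2 (-0.51) and without Smc3 wt/wt library 1.

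All 24 tested genes of ER folding were higher (25 listed), with a median of 2.89, and 2 of them had entered through the plasma cells alone. *Hsp90b1*, the ER chaperone GRP94, measured 6603, 6529 and 4597 CPM (Smc3 wt/wt) and 4472, 5242 and 13756 CPM (Smc3 wt/-), against 138 to 364 CPM (4.82 ± 0.19). *Hspa5*, the chaperone BiP that binds free heavy chains, measured 2879, 3324 and 2674 CPM (Smc3 wt/wt) and 2851, 2119 and 6108 CPM (Smc3 wt/-), against 288 to 389.6 CPM (2.91 ± 0.18). Smc3 wt/- library 3 was the highest of all for both chaperones, and the groups did not overlap. *Fkbp11*, a proline isomerase, differed by 8.40 ± 0.31 (entered through the plasma cells alone), *Txndc5* by 4.35 ± 0.20 and *Dnajc3*, a BiP co-chaperone, by 4.31 ± 0.21. In ER associated degradation, which returns misfolded chains to the cytosol, 15 of 17 were higher and none lower, with a median of 2.38. *Edem2* (5.19), *Derl3* (4.94), *Edem1* (4.44) and *Sel1l* (4.17) led this group.

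ER to Golgi transport had 21 of 27 higher and none lower, with a smaller median of 1.33, led by the cargo receptor *Lman1* (4.11 ± 0.23). Among 12 tested of 16 genes of the unfolded protein and amino acid stress responses, 8 were higher and none lower, with a median of 1.11. *Slc3a2*, the heavy chain of amino acid carriers, measured 845, 712 and 1407 CPM (Smc3 wt/wt) and 1327, 1321 and 1159 CPM (Smc3 wt/-), against 80.2 to 113 CPM (3.31 ± 0.21, edgeR adjusted p = 4.41e-24). *Asns*, asparagine synthetase, stood at 0 to 375 CPM in plasma cells and at 11.2 to 23.3 CPM in B cells (3.36 ± 0.30), with no UMI in the plasma cells of Smc3 wt/wt library 1. *Creb3l2* and *Atf6*, both transcription factors released from the ER or Golgi membrane, differed by 6.53 ± 0.50 and 2.46 ± 0.35. Of these, *Creb3l2* had entered through the plasma cells alone.

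Several of the chaperone genes carry the ER stress response element (ERSE) close to their start, an element that ATF6 and XBP1 are known to bind with NF-Y. Its letters, CCAAT and CCACG with 9 bases of any kind between, were searched on both strands of RefSeq windows from 250 bases before to 50 after gene starts (GRCm38.p6), and occurred in 37 of 27025 genes (0.137%). Of 103 secretory list genes with a window, 9 held it (8.74%): *Calr*, *Canx*, *Creld2*, *Derl3*, *Dnajc3*, *Hsp90b1*, *Hspa5*, *Pdia6* and *Syvn1*. Of these, 8 were higher in plasma cells, and *Syvn1*, a ubiquitin ligase of ER degradation, did not pass the threshold. Of all 103 secretory genes with a window 80 were higher, so this count is read beside that share. Of the 13 tested genes with the element in the genome, 8 were higher and 1 lower. The second form, ERSE-II (ATTGG and CCACG with 1 base between), occurred in 12 genes (0.0444%), 3 of them secretory (*Dnajb11*, *Herpud1* and *Krtcap2*, all higher). Over the 8 tested genes with ERSE-II, 4 were higher, the other being *Nucb1*. An XBP1 type element (TGACGTGG) was commoner, in 193 genes (0.714%) and 7 secretory ones (6.80%), and 20 of its 77 tested genes were higher and 13 lower. Among the 6 tested secretory ones 3 were higher. Read on the other strand it begins with the CCACG that ends both ERSE forms, so the searches can overlap. A match of letters is a description and not a bound site. The 5 stretches printed here, each 120 bases long and upstream of the start of a chaperone, co-chaperone, degradation or stress gene that was higher in plasma cells, show the match in capitals, from 5′ to 3′ on the strand of the gene. The *Hsp90b1* stretch lies at chr10:86705575-86705694 (minus strand), *Derl3* at chr10:75893192-75893311, *Creld2* at chr15:88819470-88819589, *Dnajc3* at chr14:118937777-118937896 and *Herpud1* (ERSE-II) at chr8:94386309-94386428 (all plus strand). The capitals begin 212, 156, 126, 105 and 52 bases before the start, in that order, and in *Derl3* and *Creld2* the element reads on the opposite strand.
Hsp90b1: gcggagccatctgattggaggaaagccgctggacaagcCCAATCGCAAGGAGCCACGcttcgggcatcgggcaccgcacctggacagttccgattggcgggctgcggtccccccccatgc
Derl3: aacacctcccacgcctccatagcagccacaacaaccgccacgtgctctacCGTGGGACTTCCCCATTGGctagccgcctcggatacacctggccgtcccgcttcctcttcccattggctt
Creld2: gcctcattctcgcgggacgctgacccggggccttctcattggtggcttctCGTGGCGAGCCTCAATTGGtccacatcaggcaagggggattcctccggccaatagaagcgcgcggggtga
Dnajc3: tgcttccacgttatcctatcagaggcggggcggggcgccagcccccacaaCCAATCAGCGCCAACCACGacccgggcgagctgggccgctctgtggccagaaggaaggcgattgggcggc
Herpud1: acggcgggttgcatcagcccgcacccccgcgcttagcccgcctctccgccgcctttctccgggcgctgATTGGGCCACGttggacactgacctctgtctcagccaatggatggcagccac

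Most B cell genes were lower than in other B cells. Of 19 B cell identity genes 18 were lower and 1 higher, with a median of -3.46, but 13 of the 18 had entered through the other B cells alone, *Ms4a1* among them. *Ms4a1*, which encodes CD20, measured 0, 163 and 269.7 CPM (Smc3 wt/wt) and 49.1, 54.5 and 190.3 CPM (Smc3 wt/-), against 1217 to 1911 CPM in other B cells (-4.16 ± 0.25). The exception was *Cd79a*, a signalling chain of the B cell receptor that was also used to define the B cells, at 3177 to 4529.8 CPM in plasma cells and 1574 to 2525 CPM in B cells (0.70 ± 0.15, edgeR adjusted p = 4.61e-05). All 10 genes of antigen presentation on MHC class II were lower, with a median of -2.94, and 5 of them had entered through the other B cells alone. *H2-Aa*, the class II alpha chain, measured 115, 861 and 680.2 CPM (Smc3 wt/wt) and 147, 369 and 623 CPM (Smc3 wt/-), against 2717 to 5096 CPM (-3.19 ± 0.20).

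Division genes were low as well. All 20 cell cycle genes were lower than in other B cells, a group that includes dividing GC cells, with a median of -3.29, but 16 had entered through those B cells alone. *Stmn1*, a microtubule regulator, measured 76.8, 134 and 539 CPM (Smc3 wt/wt) and 0, 32.8 and 121 CPM (Smc3 wt/-), against 483 to 1953 CPM. Its level in plasma cells of Smc3 wt/wt library 3 overlapped with that of B cells in Smc3 wt/- library 2. Plasma cells with at least 2 UMIs of *Mki67* and *Top2a* numbered 0, 2 and 4 (Smc3 wt/wt) and 0, 17 and 0 (Smc3 wt/-). Of 11 genes of cohesin, the ring that holds sister chromatids and shapes loops, and its regulators, 8 were lower, none was higher and 3 did not pass, with a median of -1.13 (4 lower without the low count filter). Of the 8, 6 had entered through the other B cells alone, *Smc3* among them. *Smc3* itself had 0, 5 and 7 UMIs in plasma cells of Smc3 wt/wt and 0, 289 and 2 in those of Smc3 wt/- (-1.34 ± 0.32). Counting from the 3′ end does not read exon 4 so these UMIs do not check the deletion.

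Genes of migration were divided. Of 16 tested genes, 6 were higher, 9 lower and 1 not past the threshold, with a median of -1.27. Of the 9 lower ones 8 had entered through the other B cells alone. Without Smc3 wt/- library 2 the direction turned, with 6 of 15 higher, 2 lower and a median of 0.77. With DESeq2, or without the library block, 5 were lower. *Ccr10*, the receptor for mucosal chemokines that IgA plasma cells are known to carry (chr11:101172997-101175443, minus strand), measured 576, 594 and 645 CPM (Smc3 wt/wt) and 295, 913 and 467 CPM (Smc3 wt/-), against 0 to 7.29 CPM in B cells (9.69 ± 0.41, also entered through the plasma cells). *Itgb7*, the beta chain of the gut-homing integrin, measured 537, 326 and 246 CPM (Smc3 wt/wt) and 491, 212 and 502 CPM (Smc3 wt/-), against 8.27 to 76.2 CPM (4.21 ± 0.33). Neither gene overlapped between the groups, and both were highest among B cells in Smc3 wt/- library 2. *Ccr6*, a follicle and mucosal homing receptor, differed by -5.37 ± 0.61, with 23 UMIs in all plasma cells. This call was lost without Smc3 wt/- library 2, whose B cells had the highest level, although the difference was then larger (-9.09, edgeR adjusted p = 0.114).

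Genes of survival and death moved both ways, with 2 of 11 tested higher, 3 lower and 6 not past the threshold (median -0.21). The 5 called of 11 sit near the 43.2% called over all genes tested, and without Smc3 wt/- library 2 the median was 0.31. *Bcl2*, which blocks mitochondrial cell death, measured 76.8, 104 and 164 CPM (Smc3 wt/wt) and 147, 102 and 104 CPM (Smc3 wt/-). Other B cells were at 9.04 to 18.9 CPM in 5 libraries and at 154 CPM in Smc3 wt/- library 2, above its plasma cells (log2 difference 1.92 ± 0.44, edgeR adjusted p = 1.72e-04). Without this library it was 3.43. *Tnfrsf13c*, the BAFF receptor of mature B cells (-2.27 ± 0.26), the death receptor gene *Fas* (-1.15 ± 0.28) and *Bak1*, which opens mitochondria in cell death (-1.24 ± 0.31), were lower.

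Outside the lists, the 10 genes with the largest rise against other B cells in every library were *Bhlha15*, *Hid1*, *Cst6*, *Selenom*, *Tmem176a*, *Atp1b1*, *Tmem176b*, *Trf*, *Copz2* and *Kcnmb4os2*, all entered through the plasma cells alone. *Bhlha15* encodes MIST1, a factor of secretory cells, and stood at 59.4 to 173 CPM against 0 to 0.841 CPM (9.90 ± 0.57). *Selenom*, an ER selenoprotein, measured 307, 223 and 281 CPM (Smc3 wt/wt) and 541, 443 and 398 CPM (Smc3 wt/-), against 0.305 to 3.64 CPM. *Trf*, which encodes the iron carrier transferrin, was at 138 to 463 CPM against 0.326 to 13.5 CPM (7.89 ± 0.41), and the B cell value was highest in Smc3 wt/- library 2. The 10 with the largest fall, *Ackr2*, *Exo1*, *Gm15991*, *Ticrr*, *Gm26520*, *Gm10282*, *Gxylt2*, *Lrrc49*, *Kif14* and *Stil*, had no UMI in any plasma cell. There, 3 UMIs over all plasma cells would be 0.552 CPM, a floor set almost wholly by Smc3 wt/- library 2. In the other 5 libraries 3 UMIs would be 35.2 to 147 CPM, above the mean levels of these genes in other B cells. In other B cells they had 441 to 2007 UMIs each, and means of 5.64 to 23.0 CPM over libraries. Without Smc3 wt/- library 2 the calls of *Gm10282*, *Gm15991*, *Kif14* and *Stil* were lost. Their differences were then -9.66, -9.22, -9.08 and -9.65, against -8.77, -9.08, -8.24 and -8.15 with it. The calls of *Exo1*, *Gxylt2*, *Lrrc49* and *Ticrr* were not lost, and *Ackr2* and *Gm26520* were not tested. All 10 genes had entered through the other B cells alone. With no UMI in plasma cells, neither the kept nor the lost calls support anything. *Malat1*, a nuclear non-coding RNA, was at 66135 to 82149.7 CPM in plasma cells and 11675 to 22413 CPM in B cells (2.01 ± 0.10), without overlap.

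Without Smc3 wt/- library 2, 2498 of 7759 genes differed from B cells, 896 higher and 1602 lower. Plasma cell regulators were then higher for 18 of 21 and lower for none, translocation genes for 22 of 24, N-glycosylation for 13 of 17, folding for 23 of 23, degradation for 15 of 17, ER to Golgi transport for 20 of 27 and the stress responses for 7 of 12. B cell identity genes were lower for 16 of 19, class II genes for 10 of 10, cell cycle genes for 19 of 20 and cohesin genes for 7 of 11. Of 241 called differences of named genes over the 3 comparisons, 63 moved by more than 1.5 times without this library, 20 lost the call and none changed sign. *Bhlha15* against B cells was then 11.14, *Fkbp11* 9.10, *Cd28* 8.69, *Creb3l2* 7.18, *Itgb7* 5.15 and *Atf6* 3.14. *Ccr10* was 11.13, *Tnfrsf17* 11.50, *Trf* 9.24, *Irf4* 4.97 and *Ms4a1* -3.44, while *Prg2* against intermediate cells was 3.79. With all libraries, *Bhlha15*, *Fkbp11*, *Cd28*, *Creb3l2*, *Ccr10*, *Tnfrsf17*, *Trf* and *Prg2* had entered through the plasma cells alone. *Ms4a1* had entered through the other B cells alone. The values of all these genes are descriptions.

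A plasma cell barcode held more RNA in total than a B cell but fewer non-immunoglobulin UMIs in most libraries. The median total was 3.19-fold that of other B cells on average, a value that contains the immunoglobulin used in selection and was not tested. Non-immunoglobulin UMIs were 0.719-fold and higher in 1 of 6 libraries, Smc3 wt/- library 2 (two-sided exact permutation test, flipping the sign within libraries, p = 0.0625, adjusted over 2 measures 0.0625). Ribosomal protein genes took a median of 9.54%, 15.6% and 16.0% of non-immunoglobulin UMIs in the plasma cells of Smc3 wt/wt and 10.2%, 18.3% and 14.0% in those of Smc3 wt/-. In other B cells they took 15.4%, 22.2% and 22.7%, and 14.5%, 27.6% and 21.4%. The share was lower in plasma cells in all 6 libraries, by 6.69 percentage points on average (SD 1.68; exact permutation p = 0.03125, the smallest possible; adjusted 0.0625). Neither measure passed the threshold after adjustment.

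Compared with the intermediate cells, which share *Xbp1* but hold less immunoglobulin, fewer genes differed. Smc3 wt/wt library 1, with 3 intermediate cells, was left out. Of 1061 genes tested 258 differed (24.3%), 125 higher (11.8%) and 133 lower (12.5%). Plasma cell regulators were higher for 9 of 16, 5 of which had entered through the plasma cells alone, and lower for 1, with a median of 0.82, and ER associated degradation for 6 of 13 and lower for none, with a median of 0.58. *Prg2* showed a difference of 4.87 ± 0.46, with 0 to 69.9 CPM in intermediate cells. *Ccr10* was 1.99 higher, *Sdc1* 1.68, *Edem2* 1.40 and *Ssr4* 1.25, all on the log2 scale. N-glycosylation had 6 of 13 lower and none higher, but 1 lower and 1 higher with a 40% immunoglobulin threshold. Translocation had 5 of 21 higher and 2 lower, and 1 higher without Smc3 wt/- library 3. ER folding had 4 of 19 lower and 2 higher, and 10 of 19 lower and 2 higher without Smc3 wt/- library 3, with a median of -0.57 instead of -0.24. In each of these 3 lists 1 lower gene had entered through the intermediate cells alone, and 1 higher translocation gene through the plasma cells alone. *Ssr2*, a partner of *Ssr4* in the same complex, was at 457 to 691 CPM in plasma cells and 1195 to 1653 CPM in intermediate cells (-1.30 ± 0.17, edgeR adjusted p = 3.39e-04), and *Calr*, the lectin chaperone calreticulin, differed by -1.11 ± 0.20. So 2 genes of a single complex, *Ssr4* and *Ssr2*, moved in opposite directions. ER to Golgi transport had 1 of 18 lower, entered through the intermediate cells alone, and none higher. *Slc3a2* was again higher (2.31 ± 0.22), as was *Asns* (2.38 ± 0.50). With Smc3 wt/- library 2 left out, 183 of 965 genes differed, and the difference was 4.54 for *Asns* and 2.70 for *Ccr10*. Here *Prg2*, *Ccr10*, *Sdc1*, *Slc3a2* and *Asns* had entered through the plasma cells alone.

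The genes outside the lists with the largest rise over intermediate cells were *Tmem176b* (3.65 ± 0.38), *Tmem176a* (3.26 ± 0.26), which encode a pair of membrane channel-like proteins, *Trf* (2.72 ± 0.38), *Pck2*, a mitochondrial enzyme that makes phosphoenolpyruvate (2.17 ± 0.31), and *Ly6d*, a surface protein of the Ly6 family (2.11 ± 0.33). These 5 genes had entered through the plasma cells alone. *Tmem176a* measured 576, 594 and 809 CPM (Smc3 wt/wt) and 491, 1767 and 882 CPM (Smc3 wt/-). It was highest in Smc3 wt/- library 2 and detected in all. *Pck2* stood at 115 to 393 CPM (difference 2.77 without Smc3 wt/- library 2) and *Ly6d* at 959.7 to 3019 CPM. The largest falls were *Ddt* (-2.26 ± 0.31), *Gmfg* (-1.87 ± 0.36), *Sfn* (-1.73 ± 0.30), the class Ib gene *H2-Q7* (-1.67 ± 0.26) and the lysosomal protease gene *Ctsz* (-1.65 ± 0.27). Of these, *Ddt*, *Sfn* and *H2-Q7* had entered through the intermediate cells alone. *Gmfg* lost the call without Smc3 wt/- library 2 (-1.05, edgeR adjusted p = 0.0612). *H2-Q7* may share reads with the near-identical *H2-Q* genes and is uncertain.

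**Figure D4:**
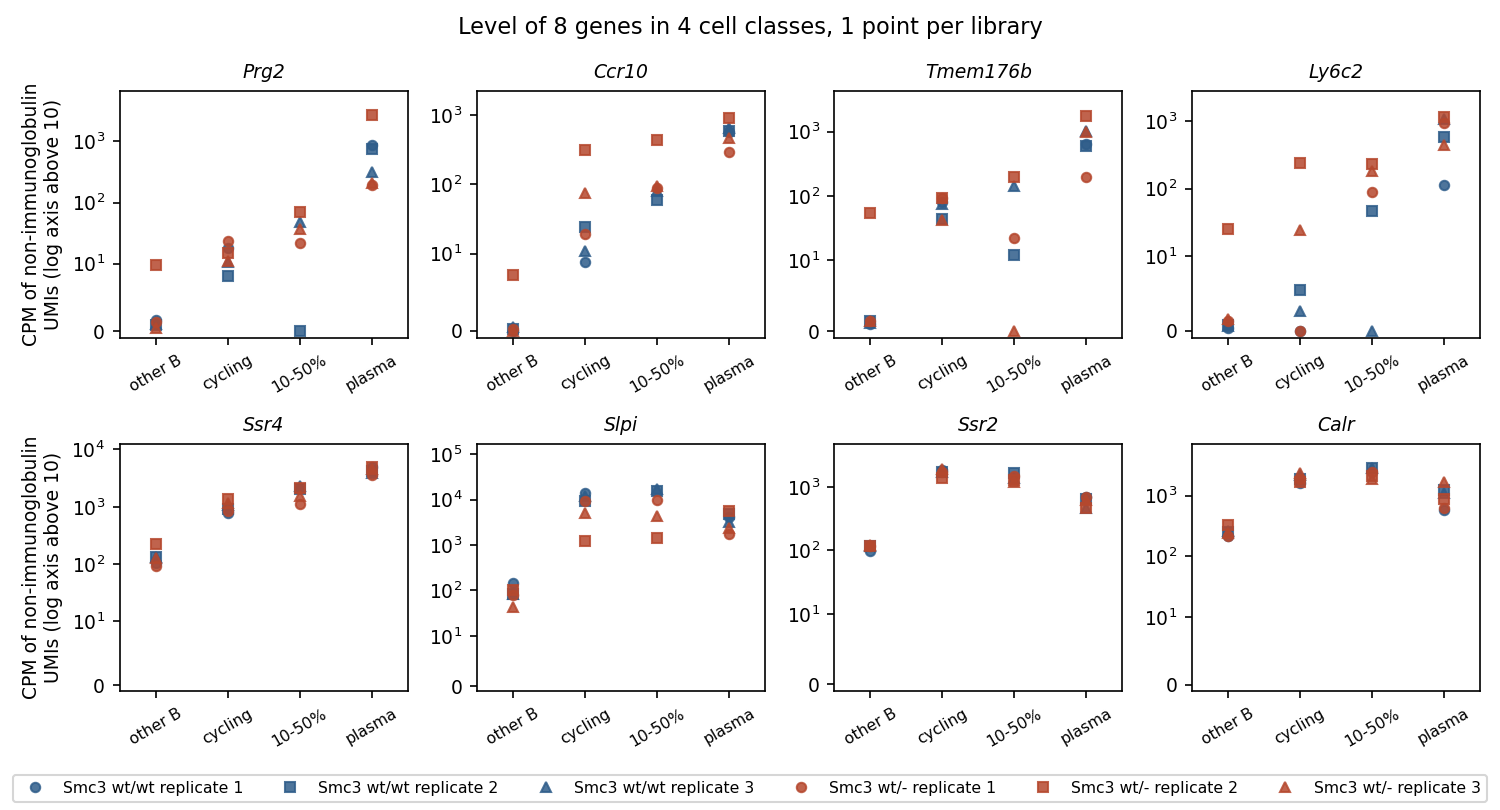
Levels of selected genes (CPM of non-immunoglobulin UMIs, log scale) in plasma cells, intermediate cells, cycling plasmablasts and other B cells, 1 point per library. *Ccr10* and *Prg2* are highest in plasma cells, while *Slpi* is higher in the intermediate and cycling cells of every library except Smc3 wt/- library 2.

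Against cycling plasmablasts, 1051 of 2459 genes differed (42.7%), 517 higher (21%) and 534 lower (21.7%). All 18 tested cell cycle genes were lower, with a median of -3.70, but 17 had entered through the cycling plasmablasts alone, and the division genes *Mki67* and *Top2a* had set these groups apart. Plasma cell regulators were higher for 13 of 19, 3 of which had entered through the plasma cells alone, and lower for 1, with a median of 1.01. ER associated degradation had 11 of 15 higher and none lower (0.80), and ER folding 9 of 22 higher and 5 lower (0.05), 1 of the higher ones entered through the plasma cells alone. The balance of ER folding turned without the low count filter, to 4 of 25 higher and 9 lower with a median of -0.40, and 7 of 17 degradation genes were then higher. *Prg2* differed by 6.02 ± 0.39 and had entered through the plasma cells, as had *Ccr10*, *Itgb7* and *Bcl2*. Differences were 3.37 ± 0.38 for *Ccr10*, 2.12 ± 0.38 for *Itgb7* and 3.47 ± 0.45 for *Bcl2*. *Cd79a* was higher (2.46 ± 0.17). The gene for class II MHC *H2-Aa* was lower (-1.11 ± 0.23), and 5 of 6 class II genes were lower, 1 higher, with 2 of the lower ones entered through the cycling plasmablasts alone. Of B cell identity genes, by contrast, 4 of 8 were higher and 1 lower, with a median of 0.31, 1 of the higher ones entered through the plasma cells alone. The class II gene that was higher was *Cd74*, the invariant chain (0.67 ± 0.17). Cohesin genes were lower for 4 of 6, all 4 entered through the cycling plasmablasts alone, with a difference of -1.07 ± 0.29 for *Smc3*. Leaving out Smc3 wt/- library 2 left 730 of 1540 genes, with differences of 5.12 for *Prg2*, 4.27 for *Ccr10* and 3.06 for *Itgb7*.

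*Slpi* departed from the other regulators. It measured 4069, 4838 and 3190.1 CPM (Smc3 wt/wt) and 1720.2, 5503 and 2371 CPM (Smc3 wt/-) in plasma cells, and 14157, 9126 and 11777 CPM (Smc3 wt/wt) and 9391, 1247 and 5116 CPM (Smc3 wt/-) in cycling plasmablasts. Plasma cells were lower than cycling plasmablasts in 5 libraries and higher only in Smc3 wt/- library 2 (log2 difference -0.95 ± 0.38, edgeR adjusted p = 0.0475). With a 40% immunoglobulin threshold the direction turned (0.90, edgeR adjusted p = 0.0254). The call was lost when any of the other 5 libraries was left out (edgeR adjusted p = 0.067 to 0.16), and without Smc3 wt/- library 2 the difference was -1.37 (edgeR adjusted p = 4.60e-08). Against intermediate cells the difference was -1.17 ± 0.51 (edgeR adjusted p = 0.112). Outside the lists, *Tmem176a* (4.33), *Trf* (4.05), *Tmem176b* (3.86), *Ly6k* (3.69, and 4.83 without Smc3 wt/- library 2) and the secretory vesicle GTPase gene *Rab3d* (3.46) differed most from cycling plasmablasts, all 5 having entered through the plasma cells alone. *Gins2*, *Aurka*, *Spc24*, *Tpx2* and *Aurkb*, all genes of DNA replication or the mitotic spindle, fell most. These 5 had entered through the cycling plasmablasts alone, a group that was cut on division genes.

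Within Smc3 wt/- library 2 the 1591 plasma cells varied far beyond counting error in a limited set of genes. After dividing by non-immunoglobulin UMIs, the variance of *Slpi* was 118 times that of counting alone, that of *Ly6c2*, a surface protein gene of the Ly6 family, 49.1 times, of *Crip1* 48.4 times and of *Prg2* 38.4 times, among 875 genes with enough UMIs. *Prg2* had a median of 4 UMIs per cell, a highest value of 454 and no UMI in 250 cells. Hemoglobin genes ranked above all of these, with 2557 UMIs of *Hbb-bs* in 1 cell and a median of 2. *Hsp90b1* was found in all but 5 cells, with a median of 13 UMIs.

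Across these cells *Prg2* rose with *Ly6a* (Spearman rho 0.48 over 1591 cells) and *Tmem176a* (0.42) and ran against *Hsp90b1* (-0.36). *Tmem176a* and *Tmem176b* correlated at 0.57, and *Hsp90b1* and *Hspa5* at 0.52. All the cells shared a library, and each value was divided by the cell's own depth. The immunoglobulin share, which the selection had used, ran with *Prg2* (0.29) and against *Hsp90b1* (-0.29).

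The same order showed over 4 bands of immunoglobulin share in this library, with 71, 158, 626 and 736 cells from 50% to 60% up to 80% or more. *Prg2* measured 316, 2193, 2936 and 3016 CPM from the lowest band to the highest. *Tmem176a* measured 668, 973, 1850.3 and 2034 CPM, and *Hsp90b1* ran the other way, at 7671, 7121, 5425 and 4278 CPM. *Crip1*, a small zinc-binding protein, fell from 3960.1 CPM in the lowest band to 678 CPM in the highest, *Klf2*, a factor of quiescence and homing, from 700.0 CPM to 228 CPM, and *Pycard*, an inflammasome adaptor, from 2583 CPM to 821 CPM. *Mzb1*, a BiP co-chaperone of B cells, stayed within a narrow range, at 7613, 7791, 8023 and 7524 CPM. Median non-immunoglobulin UMIs were 4213, 3049.5, 3342.5 and 3073.5, and IgA took 90.1%, 93.7%, 93.1% and 98.8% of cells. These bands were cut on a value the selection used, and 1 library gives no replicate.

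The few cells of other isotypes are described beside the 1522 IgA cells of the same library, with no test. Values are sums over cells with exact Poisson 95% intervals, which cover counting error only, and the genes were chosen after their values were seen, as those at least 2-fold apart with separate intervals. Cells varied far beyond counting error, so separate intervals do not show a difference between isotypes. *Ccr10* was at 41.4 CPM (11.3 to 106) in 27 IgM cells, at 67.2 CPM (27.02 to 138) in 23 IgG2b cells and at 958 CPM in IgA cells. *Itgb7* was at 41.4 CPM in IgM and 218 CPM in IgA cells. The sums of *Ccr10* were thus the smaller ones in both groups, and that of *Itgb7* in IgM cells. *Slpi* was at 31761 CPM in IgG2b and 4375 CPM in IgA cells, *Ly6c2* at 8814 CPM and 870.0 CPM, and *Prg2* at 7297 CPM and 2664 CPM. These 3 sums were larger in IgG2b cells, but single cells of the library reached 936 UMIs of *Slpi*, 333 of *Ly6c2* and 454 of *Prg2*, and a few cells can set a sum over 23. *Chst1*, a sulfotransferase gene, was at 269 CPM in IgM, 240.0 CPM in IgG2b and 7.97 CPM in IgA cells. *Apoe*, the apolipoprotein of macrophages, was at 652 CPM in IgM and 54.5 CPM in IgA cells, with UMIs in 7 of 27 IgM cells. *Tnfrsf17* was at 173 CPM in IgG2b and 797 CPM in IgA cells.

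**Figure D5:**
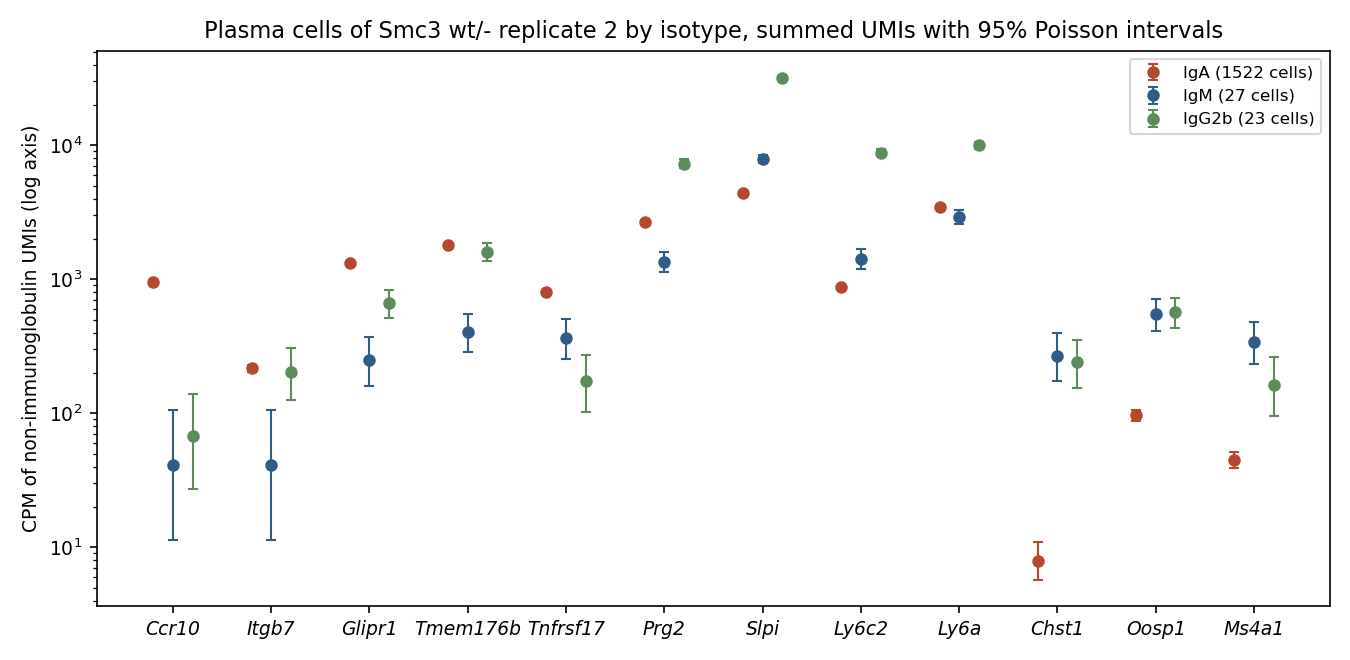
Levels of selected genes (CPM of non-immunoglobulin UMIs, log scale) in the IgA, IgM and IgG2b plasma cells of Smc3 wt/- library 2, with exact 95% Poisson intervals that cover counting error only. The sums of *Ccr10* lie lower in IgM and IgG2b than in IgA cells and that of *Slpi* is highest in IgG2b cells, with no test.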

How the data were processed

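The deposited files hold UMI counts per gene and barcode for 6 libraries (10x 3′ kit; Cell Ranger 3.0.2 per the file headers, mm10; R 4.0.2 and Seurat 4.0.0 in the submitters' notes), with no normalization by the authors. The study describes additional Smc3 wt/wt libraries that were not analysed here. Members and gene lists were chosen with earlier results of these data known. Among 31053 features, 396 with the immunoglobulin prefixes (*Ighmbp2* and *Iglon5* included, 27 UMIs in members) and *Xbp1* were left out of tests. Counts were summed per library and class (at least 5 cells) and tested with the edgeR 4.0.16 quasi-likelihood test (TMM, library block, filterByExpr, Benjamini-Hochberg at 0.05) in R 4.3.3. On simulated counts, of 200 genes changed by log2 1 or log2 2 the test recovered 40 and 166 against B cells (8684 and 8717 genes), 164 and 171 against intermediate cells (901 and 919) and 145 and 171 against cycling plasmablasts (2153 and 2128), with 13 and 25, 4 and 4, and 14 and 9 unchanged genes also called. DESeq2 1.42.0 was an alternative. A planned test of total UMIs per cell was dropped, after its value was seen, because immunoglobulin UMIs chose the members, which left 2 measures to adjust over. Doublets were scored with Scrublet (scanpy 1.11.5) and not removed. Named genes were the given markers, up to 4 genes of lowest p per list, departing list members, and the largest changes of the same direction in every library outside the lists (10 each way against B cells, 5 each way in the other comparisons). *Malat1*, *Hspa5*, *Irf4*, *Cd28*, *Ssr2*, *Calr*, *Prdm1* and genes of the within-library and isotype paragraphs were chosen after their values were seen. Some genes that this rule named are not reported here. Positions are from GENCODE M21 (GRCm38), promoters from RefSeq. Levels rest on between 20347 and 5178953 non-immunoglobulin UMIs per library, where 1 UMI is 49.1 to 0.193 CPM.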

Additional observations from a re-analysis of the deposited data

Results flagged for a closer look

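Over 23 sets of library values, 8 held a library far from the others by Dixon's test, where chance gives about 1 in 20. Smc3 wt/- library 2 stood apart in 5 of them. Its plasma cell share was 43.2% against 0.347% to 1.27%, its share of *Igha* cells 81.7% among intermediate cells against 8.33% to 23.1% and 78.5% among cycling plasmablasts against 0% to 12.0%, and its plasma cells had 2735 CPM of *Prg2* against 197 to 883 CPM and 1767 CPM of *Tmem176a* against 491 to 882 CPM. In Smc3 wt/- library 1, *Tnfrsf17* stood lower, at 294.9 CPM from 6 UMIs, against 742 to 1009 CPM. In Smc3 wt/- library 3, *Hsp90b1* was at 13756 CPM against 4472 to 6603 CPM and *Hspa5* at 6108 CPM against 2119 to 3324 CPM, from 19 cells. Genotype groups of 3 libraries were not tested in this way.

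Cells outside the comparisons also carried a signal in Smc3 wt/- library 2. Myeloid marker barcodes were 7.80% of those retained, against 0.0964% to 0.490% in the Smc3 wt/wt libraries, and T cells held a median of 1.30% immunoglobulin UMIs, against 0.0908% to 0.165%. The part of either in the results above was not tested.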

How the results depend on the processing

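Of 257 pairs of a named gene and a comparison, 195 kept their call under every alternative run. Of 4792 alternative values 198 lost the call and 5 changed sign. Those were *Hba-a2* against B cells with DESeq2 (0.33), *Mzb1* against intermediate cells (0.0092), *Slpi* (0.90, adjusted p = 0.0254 with edgeR) and *Manf* (0.037) against cycling plasmablasts with a 40% immunoglobulin threshold, and *Cd79b* against cycling plasmablasts without the low count filter (-0.071). Without Smc3 wt/- library 2, 2498 genes differed from B cells instead of 3828, and 20 of 241 named calls were lost. Leaving out 1 library at a time gave 2498 to 3538 genes against B cells, 181 to 215 against intermediate cells and 730 to 1231 against cycling plasmablasts. Without the low count filter 1840 genes differed from cycling plasmablasts instead of 1051, with 27.9% of calls higher instead of 49.2%, and against B cells 41.0% were higher instead of 29.5%. Keeping immunoglobulin genes moved the median difference from B cells from -0.45 to -0.30. The cause of these shifts was not tested. The difference in plasma cell share ran from -0.295 to 21.1 points with 1 library left out. The replicate block left it at 13.99 (exact permutation p = 1). The labels tie no replicate number to a shared mouse or day. Total UMIs per cell, a value the selection used, ran from 2.87-fold to 3.43-fold, and ribosomal shares from -7.18 to -6.16 points, where 5 libraries cannot reach the threshold. With means over cells in place of medians, both measures passed it (exact permutation test, adjusted p = 0.03125), with non-immunoglobulin UMIs 0.598-fold and ribosomal shares -6.34 points. Depth limits the small libraries most, since their plasma cells number 10 to 21.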
